A study of Arabidopsis thaliana with 12 samples.

Results

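AT1G26380 and AT1G26390 are neighbouring Arabidopsis thaliana genes that encode berberine bridge enzyme-like proteins. Each was read by the single probe set that the platform table pairs with that gene alone, so the description covers 2 of 13286 genes that have such a probe set. The genes were chosen by their log2 differences from 0 h, among the lowest of named genes from 12 h on, so their levels and differences are given as a description, with no test. The study followed whole roots of ecotype Columbia after transfer to sulfur-deficient medium. All seedlings first grew for 5 days on standard MS medium. The control group, 0 h, was moved to fresh standard medium, and the other 5 groups spent 3, 12, 24, 48 or 72 h on the deficient medium, which contained sucrose and agar. Each of the 6 groups had 2 arrays, 12 in all. Nothing in the labels says whether replicates 1 and 2 are separate cultures, so a p-value reflects the spread between these arrays alone, and that spread may be technical. Standard medium was sampled at 0 h alone, so the effects of sulfur deficiency, transfer, age and hour of harvest cannot be told apart.

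Berberine bridge enzyme, for which the family is named, is a flavin-dependent oxidase that closes a ring in alkaloid synthesis in poppies. Arabidopsis makes no berberine, and its members of the family oxidise other substrates, among them cell wall oligosaccharides, monolignols and an indole intermediate. AT1G26380, also known as FOX1, acts in the synthesis of an indole cyanogenic defence compound and is known as a gene induced by bacterial flagellin. The family includes tandem arrays, and in the gene table of assembly TAIR10.1 the genes AT1G26380, AT1G26390, AT1G26400, AT1G26410 and AT1G26420 follow each other on chromosome 1.

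The values were linear MAS5 signals, 1 per probe set and array, on a common scale. The table held no detection calls. The 40th percentile of an array, a signal of 45.3 to 50.4, is used here as the mark below which a signal is called dim and its log2 value is uncertain in size. A probe set was tested if it lay above that mark on at least 2 arrays, which 14678 of 22746 did. Across those probe sets, replicate arrays correlated at 0.966 to 0.982 on the log2 scale. Of the root markers, PYK10 had signals of 9927 to 14025 over the 12 arrays and the root hair expansin EXPA7 of 153.0 to 906.2. The photosynthesis gene RCA was also present, at 208.1 to 459.8. A gene is said to rise or fall where its difference from 0 h had an adjusted p under 0.05 in limma. Of 10 listed root markers 3 were measured. EXPA7 fell by 1.77 on the log2 scale at 3 h (limma, adjusted p = 0.00104) and by 1.15 at 24 h. EXPA18, a second root hair expansin, fell by 1.08, 1.27, 0.86 and 0.80 at 3, 24, 48 and 72 h, and PYK10 did not pass at any time. The EXPA7 call at 24 h and the EXPA18 calls at 48 h and 72 h were each lost without any 1 of several arrays. Of 8 listed markers of green tissue 2 were measured, and both fell at 12 h, RCA by 0.90 and LHCB4.1 by 0.80, calls lost without any single array of 0 h or 12 h. Of all tested probe sets 6.53% fell at 3 h, 4.33% at 12 h, 2.36% at 24 h, 1.55% at 48 h and 3.26% at 72 h. The part of these marker differences in the levels described next was not tested. In whole roots, fewer cells of a type and less RNA per cell cannot be told apart.

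AT1G26380 had its highest signals on standard medium. At 0 h its signals were 158.3 in replicate 1 and 97.4 in replicate 2, and at 3 h they were 66.8 and 44.0. At 12 h they were 17.0 and 15.0, and at 24 h 10.7 and 13.1. At 48 h they were 4.08 and 2.38, and at 72 h 11.1 and 1.71. The mean at 0 h was 127.9 ± 43.0 (SD, n = 2). At 3 h it was 55.4 ± 16.1 (SD, n = 2), which is 43.3% of the 0 h mean. At 12 h the mean was 12.5% of the 0 h mean, and at 72 h 5.02%. Both 0 h arrays and 3 h replicate 1 lay above the 40th percentile, and the other 9 arrays lay below it.

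AT1G26390 followed the same course. On standard medium its signals were 284.5 and 125.0, replicate 1 first, and after 3 h they were 97.1 and 28.6. They were 21.6 and 14.1 at 12 h, 10.3 and 6.40 at 24 h, 9.30 and 11.1 at 48 h, and 9.17 and 10.8 at 72 h. The mean at 0 h was 204.7 ± 112.7 (SD, n = 2). At 3 h it was 62.8 ± 48.5 (SD, n = 2), or 30.7% of the 0 h mean. At 12, 24, 48 and 72 h the mean was 8.70%, 4.08%, 4.99% and 4.88% of the 0 h mean. The same 3 arrays as for AT1G26380 lay above the 40th percentile.

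For both genes all 8 arrays of 12 to 72 h lay below all 4 arrays of 0 h and 3 h. Of all tested probe sets, 1.28% had that order. Since the genes were chosen for low late values, nothing is read from it.

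**Figure D1:**
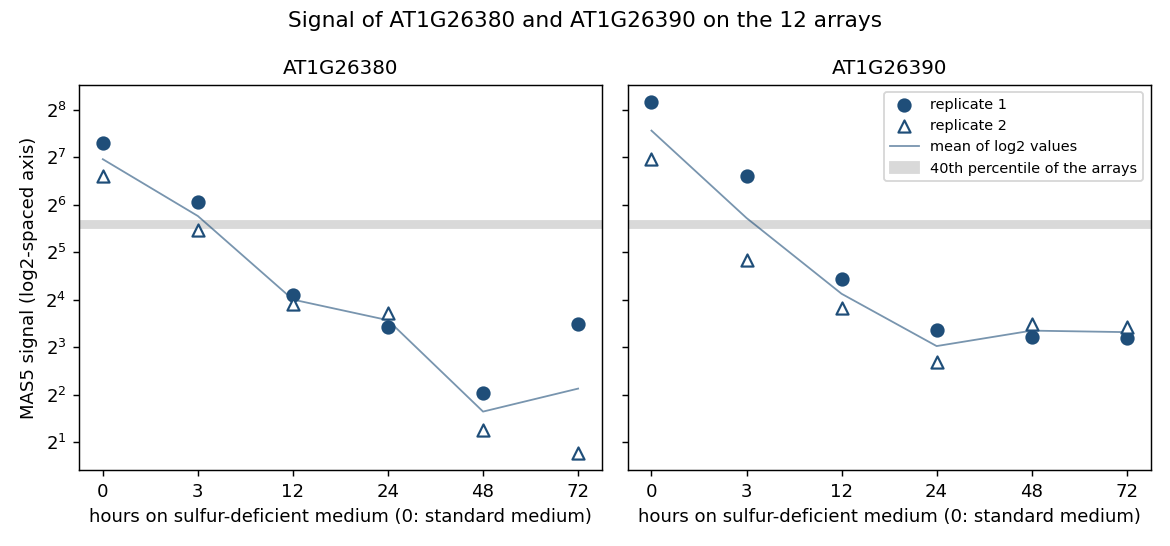
Signals of AT1G26380 (left) and AT1G26390 (right) on a log2-spaced axis against hours on sulfur-deficient medium, with times evenly spaced and 0 h on standard medium. Circles are replicate 1, triangles replicate 2, the line joins the means of the log2 values and the grey band is the range of the arrays' 40th percentiles (45.3 to 50.4). All arrays from 12 h on lie below the band.

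Neighbouring times were separate up to 24 h in both genes. For AT1G26380 the ranges of the 2 arrays did not overlap between 0 h and 3 h, 3 h and 12 h, 12 h and 24 h, or 24 h and 48 h, while 48 h and 72 h overlapped. For AT1G26390 the ranges were separate up to 24 h, and 24, 48 and 72 h all overlapped. How many of all tested probe sets had ranges separated in this way was not counted. With 2 arrays per time and genes chosen for low late values, nothing is read from the separation. The step from 24 h to 48 h in AT1G26380, at -1.93 ± 0.83 (SE) on the log2 scale, lay wholly among dim signals, and was -0.53 ± 0.30 (SE) with an offset of 16.3 added to the signals. In AT1G26390 the same step was 0.33 ± 0.63 (SE). As ranks within an array, AT1G26380 went from the 62.6 and 52.2 percentiles at 0 h to between 6.75 and 25.3 from 12 h on. AT1G26390 went from the 75.3 and 57.3 percentiles to between 15.1 and 28.5.

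The log2 differences from 0 h, which use the 0 h arrays that helped to choose the genes, were already negative at 3 h. AT1G26380 stood at -1.20 ± 0.83 (SE) at 3 h and AT1G26390 at -1.84 ± 0.63 (SE). From 12 h on the differences were -2.96, -3.39, -5.32 and -4.83 for AT1G26380 and -3.44, -4.54, -4.21 and -4.24 for AT1G26390. With the offset, which damps dim values, they were -2.13, -2.32, -2.86 and -2.67 for AT1G26380 and -2.61, -3.07, -2.96 and -2.97 for AT1G26390. Single arrays moved some of these values. Without 3 h replicate 1 the 3 h value of AT1G26390 was -2.72, and without 3 h replicate 2 it was -0.96. The 72 h value of AT1G26380 was -3.48 without 72 h replicate 2 and -6.18 without 72 h replicate 1.

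Among the 14678 tested probe sets, ordered from the lowest difference, AT1G26380 was number 425, 22, 9, 1 and 4 at 3, 12, 24, 48 and 72 h, and with the offset number 458, 45, 11, 4 and 14. AT1G26390 was number 156, 12, 3, 4 and 5, and with the offset 173, 17, 4, 3 and 11. This order uses the values by which the genes were chosen, and from 12 h on it rests on dim signals. Of the sulfur deficiency markers, all 3 measured members (BGLU28, AT1G04770 and AT1G12030) rose at every time. Of tested probe sets 5.42%, 3.36%, 2.47%, 1.97% and 2.91% rose at 3, 12, 24, 48 and 72 h. The marker list was chosen with earlier results of these data known, so nothing is read from its count. The highest signals of BGLU28, a beta-glucosidase, were 2825 in 3 h replicate 2 and 2360 in 72 h replicate 2, against 15.8 and 14.0 at 0 h. BGLU28 was thus dim at 0 h and passed the filter only through arrays of deficient medium. AT1G12030 was dim from 0 h to 24 h, at 0.978 to 32.9, so the size of its differences is uncertain. It passed the filter only through arrays of 48 h and 72 h. The calls of AT1G12030 at 3 h and 12 h were lost with the offset, and that at 24 h without 24 h replicate 1. With only the groups compared in the fit, its calls at 3, 12, 24 and 48 h were all lost (limma, adjusted p = 0.451, 0.494, 0.391 and 0.112).

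Replicate 1 was the higher array for both genes at 0 h and at 3 h. Its signal was 1.62 times that of replicate 2 at 0 h and 1.52 times at 3 h for AT1G26380, and 2.27 and 3.40 times for AT1G26390. A ratio of at least 1.5 in this direction at both times was found in 0.988% of tested probe sets. That cut lies just under the 3 h ratio of AT1G26380. The 3 h replicate 2 signals of both genes were dim, so the 3 h ratios are uncertain in size. The share among probe sets as dim was not counted, and nothing is read from it. All 4 genes of the touch and handling list that had a probe set were higher in replicate 2 at both times, as were 29.3% of tested probe sets, while 25.3% were higher in replicate 1 at both. Of the 4, STZ and AT4G27280 reached a ratio of 1.5 at both times. STZ, a zinc finger repressor that responds to stress, had 147.9 in 0 h replicate 1 and 748.1 in 0 h replicate 2, then 152.8 and 1059 after 3 h. AT4G27280, a calcium-binding protein, had 361.1 and 1295 on standard medium, then 217.4 and 1390 after 3 h. CML38, a calmodulin-like protein, had 29.3 and 32.3, then 37.2 and 63.5, and AT2G41640 had 115.9 and 158.8, then 136.1 and 201.4. The 5 tested genes of the flagellin list were divided. The defence regulator WRKY53 was higher in replicate 2, by 2.54 times at 0 h and 2.30 times at 3 h, and the peroxidase AT5G64120 by 1.30 and 1.42 times. The peroxidase AT5G39580 was higher in replicate 1, by 1.43 and 1.64 times, and AT1G51890 and AT4G08850 were higher in replicate 2 at 0 h and in replicate 1 at 3 h. A ratio of at least 1.5 toward replicate 2 at both times was found in 1.70% of tested probe sets. Of the 15 pairs of times, 0 h and 3 h had the highest correlation, across probe sets, of the difference between replicates, 0.198. The value largest in size was -0.231, between 0 h and 48 h. The part of the replicate difference at 0 h and 3 h in the levels of AT1G26380 and AT1G26390 was not tested.

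**Figure D2:**
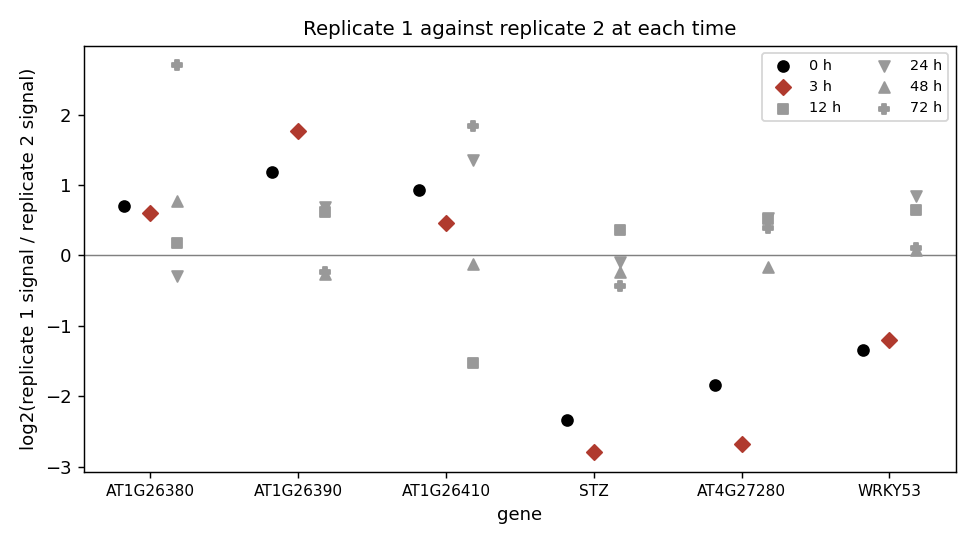
Log2 ratio of the replicate 1 signal to the replicate 2 signal at each time for 6 genes. Points above 0 are higher in replicate 1. At 0 h (black circles) and 3 h (red diamonds) AT1G26380, AT1G26390 and AT1G26410 lie above 0, and STZ, AT4G27280 and WRKY53 below it. The grey points of later times lie on both sides. AT1G26410 was dim at 3 h. Other genes of the touch and flagellin lists are not drawn. Among these, CML38, AT2G41640 and AT5G64120 were below 0 at 0 h and 3 h, and AT5G39580 was above it. AT1G51890 and AT4G08850 changed sides between 0 h and 3 h.

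The next genes of the tandem array had low signals. AT1G26410 had 58.8 and 30.9 at 0 h, replicate 1 first, then 7.06 and 5.12 at 3 h, and 1.41 to 9.01 on the 8 later arrays. Both 0 h arrays of AT1G26410 thus lay above all 10 others, an order whose share over all probe sets was not counted. Only 0 h replicate 1 was above the 40th percentile, so the gene was not tested. In the fit with no filter AT1G26410 fell by 4.15 ± 0.95 (SE) on the log2 scale at 12 h (limma, adjusted p = 0.0257), where 2.24% of all probe sets passed as lower. At 3, 24, 48 and 72 h it stood at -2.83, -3.26, -3.92 and -3.16 in that fit and did not pass. The F test of that fit did not pass for AT1G26410 either (limma, adjusted p = 0.102). Its signals after 0 h were dim, so these sizes are uncertain. AT1G26400 was dim on all arrays, with signals of 0.257 to 20.6. AT1G26420 had signals of 38.9 and 41.3 at 0 h, between 18.1 and 65.5 over all arrays, and did not pass at any time. Its log2 differences ran from -0.66 at 12 h to 0.45 at 3 h. Probe sequences were not used here, so hybridisation of one gene's RNA to a neighbour's probe set was not tested.

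Over the family, 22 of 27 listed genes had a probe set of their own, and 12 of those passed the filter. Leaving out AT1G26380 and AT1G26390, 10 were tested. At 3 h 2 of 10 rose and 0 fell, where 5.42% of tested probe sets rose and 6.53% fell. At 12 h 1 rose and 1 fell, against 3.36% and 4.33%. At 24 h 1 rose and 0 fell, against 2.47% and 2.36%. At 48 h it was again 1 and 0, against 1.97% and 1.55%, and at 72 h 1 and 0, against 2.91% and 3.26%. Over all times, the F test of the 5 differences passed for 2 of 10, against 11.7% of all tested probe sets. The median log2 difference of the 10 lay between -0.26 at 24 h and 0.12 at 3 h, and that of all tested probe sets between -0.02 and 0.01.

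The gene that rose late was AT4G20820. Its signals were 134.3 and 148.1 at 0 h and 156.3 and 116.7 at 3 h, replicate 1 first. They were 168.8 and 184.4 at 12 h, and between 222.6 and 317.6 on the 6 arrays of 24 to 72 h. All 8 arrays from 12 h on lay above all 4 of 0 h and 3 h, an order found in 1.39% of tested probe sets and opposite to that of AT1G26380 and AT1G26390. The differences from 0 h were 0.84 ± 0.20 at 24 h, 0.88 ± 0.20 at 48 h and 0.98 ± 0.20 (SE) at 72 h (limma, adjusted p = 0.0271, 0.0219 and 0.00823). Leaving out any single array of the times compared ended the calls at 24 h and 48 h, at adjusted p-values of 0.0686 to 0.229 in limma. That at 72 h was lost without 72 h replicate 1, where the difference was 0.79 (limma, adjusted p = 0.0998).

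The 2 genes that rose at 3 h encode oligosaccharide oxidases. AT4G20830 (OGOX1), which oxidises pectin fragments, went from 894.9 and 795.5 on standard medium to 2128 and 1331 after 3 h. It rose by 1.00 ± 0.21 (SE) on the log2 scale (limma, adjusted p = 0.00610), and stood at 0.66 without 3 h replicate 1 (limma, adjusted p = 0.0558). AT4G20860 (CELLOX), which oxidises cellulose fragments, went from 1005 and 1333 to 2591 and 1748. It rose by 0.88 ± 0.19 (SE; limma, adjusted p = 0.00782). It stood at 0.59 without 3 h replicate 1 and at 0.68 without 0 h replicate 1, neither past the threshold. Without 3 h replicate 1 the direction of the family's calls at 3 h turned: none of the 10 rose, and AT1G30700 at -0.83 and AT5G44380 at -0.62 passed as lower (limma, adjusted p = 0.0124 and 0.0225). At 12 to 72 h AT4G20830 stood between 0.33 and 0.68 and AT4G20860 between 0.48 and 0.64, and neither passed. Without either 3 h array both passed at 24 h.

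AT2G34810 rose at 12 h by 0.73 ± 0.20 (SE; limma, adjusted p = 0.0395), from 189.0 and 236.2 to 332.3 and 371.7. That call was lost in each fit that left out an array other than those of 3 h (limma, adjusted p = 0.0526 to 0.204) and with the replicate number as a block (limma, adjusted p = 0.0525). AT5G44380 fell at 12 h by 0.70 ± 0.15 (SE; limma, adjusted p = 0.0125), from 4193 and 3858 to 2259 and 2732. Without 0 h replicate 1 it stood at -0.64, and without 12 h replicate 1 at -0.56, and did not pass. AT5G44390 passed the F test (limma, adjusted p = 0.00722) but no single comparison with 0 h. Its signals were 164.4 and 125.6 at 0 h, 202.7 and 204.2 at 3 h and 66.6 to 108.4 on the 6 arrays of 24 to 72 h. AT1G30700, AT1G30760, a monolignol oxidase, and AT5G44400 did not pass at any time in the fit of all arrays. AT1G30700 had signals of 1072 to 1997 over the arrays, AT1G30760 of 46.0 to 141.6 and AT5G44400 of 13.3 to 114.4. Besides AT1G26400 and AT1G26410, the 8 genes AT1G11770, AT1G30710, AT1G30740, AT1G34575, AT4G20800, AT5G44360, AT5G44410 and AT5G44440 were below the filter. None of these 8 reached the 40th percentile on any array, and their highest signals ran from 2.89 for AT1G30740 to 49.2 for AT5G44410.

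**Figure D3:**
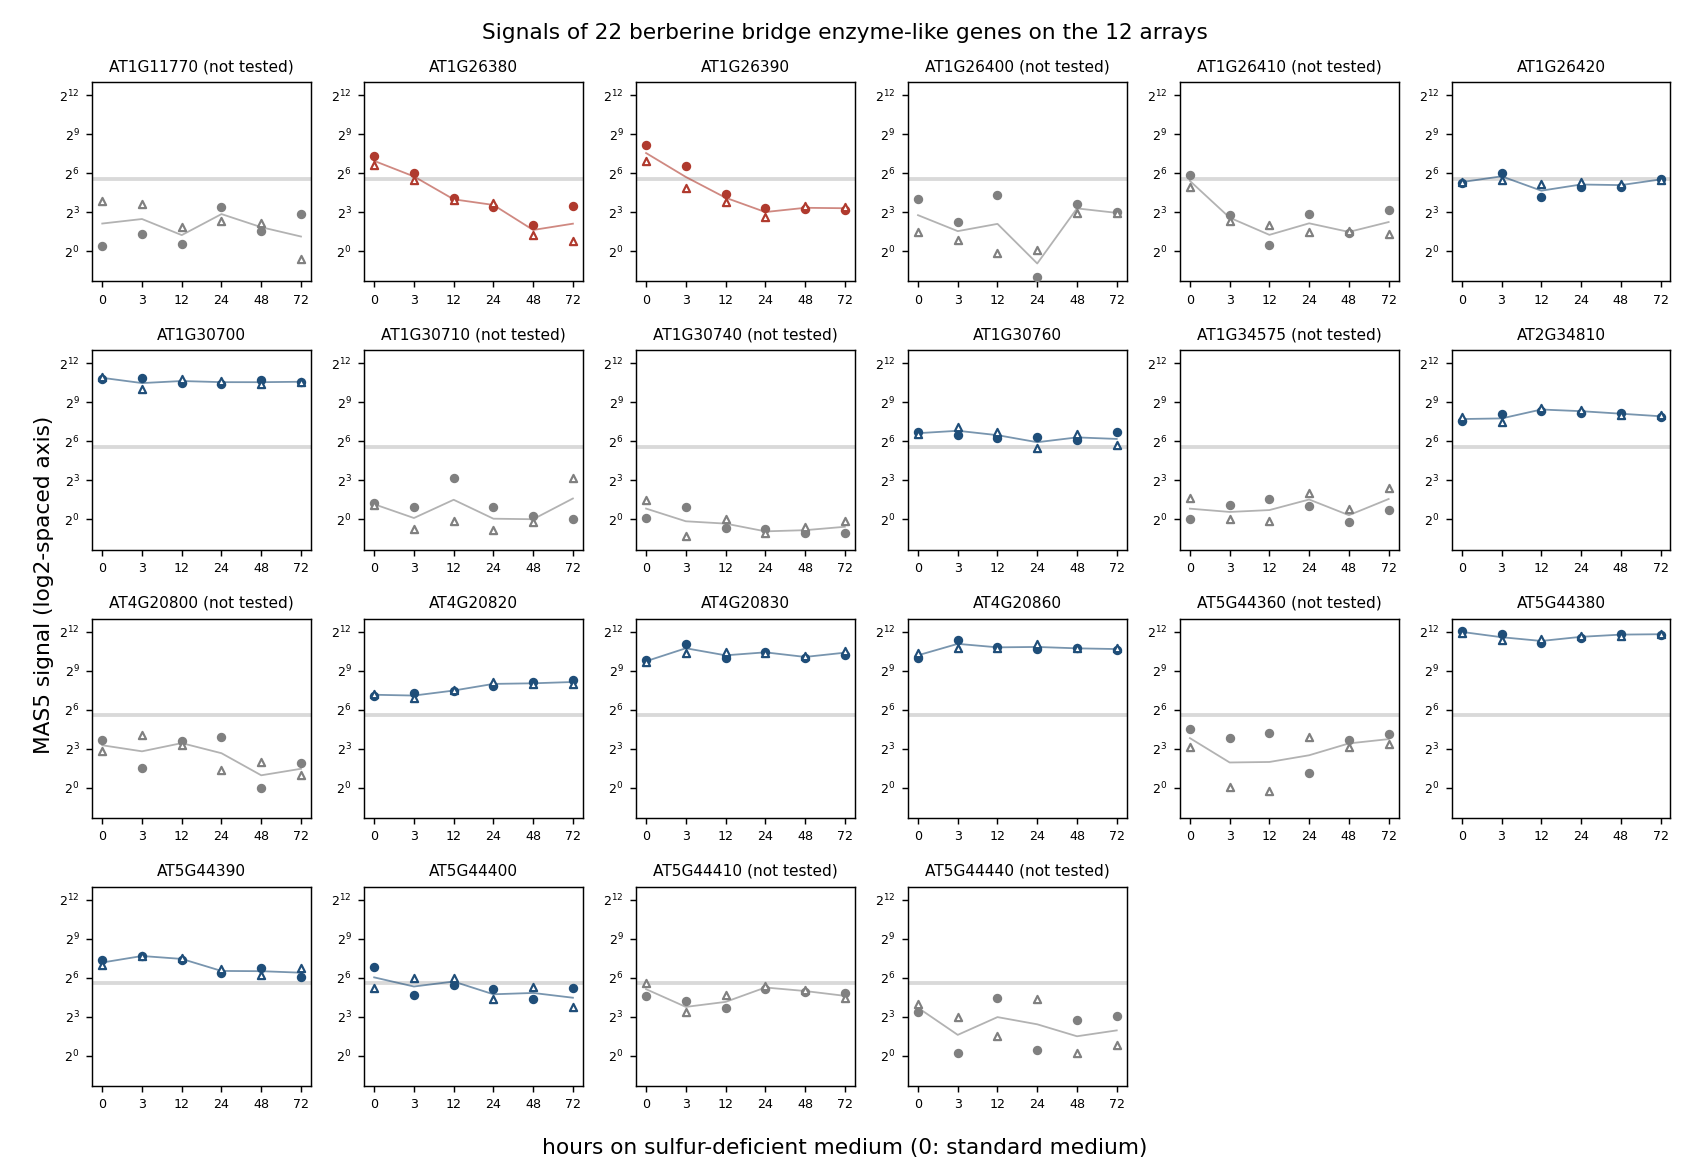
Signals of 22 berberine bridge enzyme-like genes on a log2-spaced axis against hours on sulfur-deficient medium, with times evenly spaced, in red for AT1G26380 and AT1G26390, blue for other tested genes and grey for genes below the filter. Circles are replicate 1, triangles replicate 2, the line joins means of log2 values and the band is the arrays' 40th percentiles. AT1G26380 and AT1G26390 cross the band downward between 0 h and 12 h, and AT4G20820 lies above it throughout, at 116.7 to 317.6.

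The patterns of AT1G26380 and AT1G26390 were alike over the arrays. Pearson's r of their log2 signals over the 12 arrays was 0.848, and 0.951 with the offset. Among 7853 other tested genes with a probe set of their own, AT1G26390 came in place 7 by likeness to AT1G26380, and AT1G26380 in place 19 by likeness to AT1G26390. With the offset each was in place 1 for the other. The 12 points are 6 times of 2 arrays that share the 0 h and 3 h arrays as their high end, so r is a description and carries no p. Both genes were also chosen by values of these same arrays, so their r and places follow in part from that choice.

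The 5 genes most like AT1G26380 were AT3G51350, an aspartic protease, WRKY22, a defence transcription factor, AT5G26260, AT2G38870, a protease inhibitor, and the ATP sulfurylase APS4. Their r ran from 0.868 for APS4 to 0.933 for AT3G51350. With the offset AT3G51350 and WRKY22 came in places 2 and 3. AT5G26260 then came in place 10, AT2G38870 in 19 and APS4 in 35, so the places of these last genes depend on dim values. Mean signals of AT3G51350 were 303.6 at 0 h, 258.1 at 3 h, 167.5 at 12 h and 99.2 at 72 h. Those of WRKY22 were 111.3 at 0 h, 70.7 at 3 h, 52.4 at 12 h, 45.9 at 24 h, 25.7 at 48 h and 31.8 at 72 h. WRKY22 was above the 40th percentile on all 4 arrays of 0 h and 3 h and on 2 of 8 later ones. APS4, which activates sulfate for reduction, had means of 1783 at 0 h, 1512 at 3 h, 314.9 at 48 h and 176.2 at 72 h.

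The 5 most like AT1G26390 were AT4G07820, a protein of the PR-1 type, AT3G18450, AT3G45730, AT4G03340 and AT1G34510, a peroxidase. Their r ran from 0.882 for AT1G34510 to 0.916 for AT4G07820. Mean signals of AT4G07820 were 475.5 at 0 h, 343.9 at 3 h, 225.2 at 12 h and 234.6 at 72 h. Those of AT3G45730 were 117.0 at 0 h, 35.1 at 3 h and 23.3 at 12 h, and those of AT1G34510 were 165.8, 81.3 and 19.0. AT3G45730, AT1G34510 and AT3G18450 were, like AT1G26390, below the 40th percentile on all 8 arrays from 12 h on. Each of these genes passed the filter only through arrays of 0 h and 3 h. Their likeness thus follows in part from the filter, and nothing is read from the shared dim late signals.

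**Figure D4:**
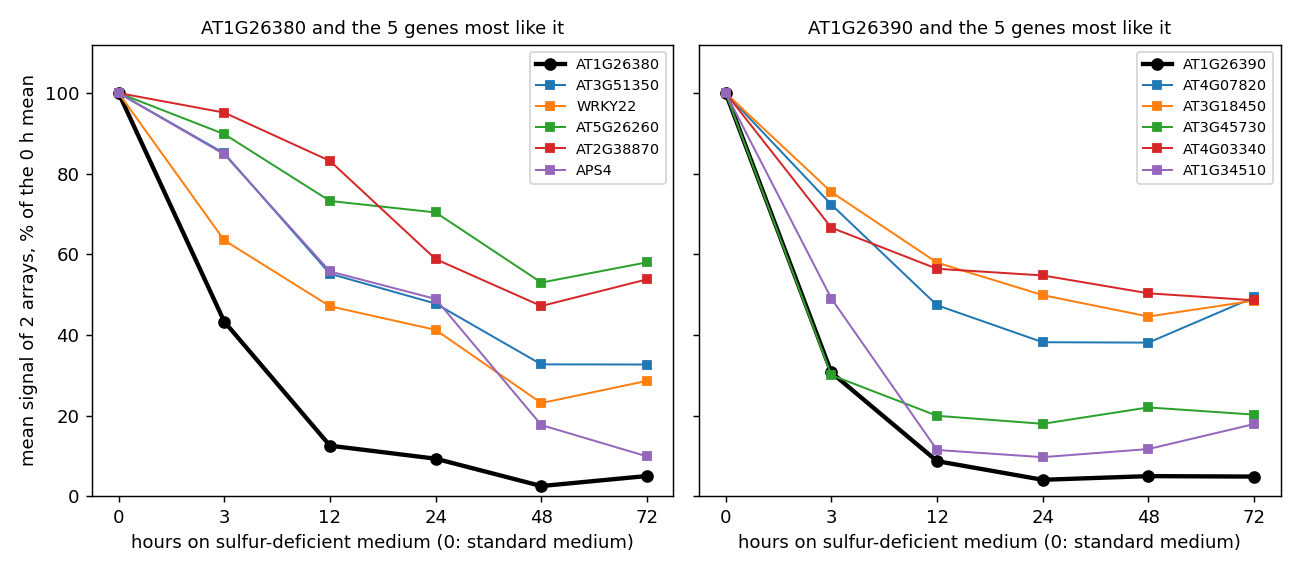
Mean signal of 2 arrays as a percentage of the 0 h mean against hours on sulfur-deficient medium, with times evenly spaced, for AT1G26380 (left, black) and AT1G26390 (right, black) with the 5 genes whose log2 signals correlate most with each. AT1G26380 stands at 43.3% and AT1G26390 at 30.7% at 3 h, and from 12 h on all 10 genes beside them keep larger shares of their 0 h signal. AT1G26380 and AT1G26390 were chosen for low late values and are dim from 12 h on, so nothing is read from this.

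Few genes of the indole and defence pathways around AT1G26380 had a probe set of their own in the platform table. Of 15 genes listed under indole cyanogen and camalexin synthesis 1 had one, JRG21, which was not tested. Whether JRG21 acts in that synthesis was not checked here, so nothing about the pathway is read from it. None of 12 salicylate and PR genes had one. Of 20 genes of the response to flagellin 5 were tested, with 0 of 5 past the threshold at 3 h, 2 lower at 12 h, and 1 lower at each of 24, 48 and 72 h. Of all tested probe sets 4.33% fell at 12 h, 2.36% at 24 h, 1.55% at 48 h and 3.26% at 72 h. The flagellin list was chosen with earlier results of these data known, so nothing is read from its counts. The peroxidase AT5G64120 had signals of 7314 and 9524 at 0 h and of 2591 to 5037 on the 8 arrays of 12 to 72 h. It fell by 1.23 ± 0.25 (SE) on the log2 scale at 12 h (limma, adjusted p = 0.00772) and by 1.28 ± 0.25 (SE) at 72 h (limma, adjusted p = 0.00717). Without 0 h replicate 2 it stood at -1.03 at 12 h and -1.09 at 72 h, and passed at no time. The peroxidase AT5G39580 fell by 0.89 at 12 h (limma, adjusted p = 0.0471), a call lost with the replicate number as a block and without 0 h replicate 1, 12 h replicate 1 or a single array from 24, 48 and 72 h. WRKY53 stood at -0.41 at 12 h and -1.13 at 72 h and did not pass, and the receptor kinases AT1G51890 and AT4G08850 stood between -0.25 and 0.17 at every time.

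In the touch and handling list 3 of 12 genes were tested. At 3, 12, 48 and 72 h none passed, and at 24 h AT4G27280 fell by 2.56 ± 0.66 (SE; limma, adjusted p = 0.0407), which without 0 h replicate 2 was -1.64 and did not pass. STZ stood at -1.87 at 12 h and -2.28 at 24 h, and AT2G41640 between -0.01 and 0.29 at all times. Of 4 tested genes of mitochondrial stress, 2 rose at 3 h, 3 at 12 h, 3 at 24 h, 1 at 48 h and 3 at 72 h. None fell. Of tested probe sets 5.42%, 3.36%, 2.47%, 1.97% and 2.91% rose at these times. This list and the touch and handling list were chosen with earlier results of these data known, so nothing is read from their counts. AT2G21640 (UPOX), a marker of oxidative stress, had signals of 46.7 and 73.9 at 0 h and of 95.7 to 241.2 afterwards. It rose by 1.73 ± 0.27 (SE) at 12 h (limma, adjusted p = 0.00115). The alternative dehydrogenase NDB2 rose by 1.05 ± 0.15 (SE) at 3 h (limma, adjusted p = 0.000370). AT2G41380 rose by 0.99 at 12 h, a call lost without 12 h replicate 1, and its call at 72 h was lost in each fit that left out an array other than those of 3 h. Without 24 h replicate 1 all 3 calls at 24 h were lost (limma, adjusted p = 0.241 for NDB2, 0.379 for UPOX and 0.151 for AT2G41380). The 72 h call of NDB2 was lost without 0 h replicate 2 or either 72 h array, and the 3 h call of UPOX without 0 h replicate 1. AT5G09570 did not pass at any time.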

How the data were processed

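The authors deposited 1 linear intensity signal per probe set and array, made with MAS5 per the submitters' processing notes, with no version; biotin-labelled cRNA came from a single-cycle protocol per the labels. Nothing used here states the scaling target. Trimmed means (2%) of the 12 arrays all rounded to 250.02 or 250.03, so log2 of the deposited signals was analysed without further scaling. Of 22810 probe sets 64 were controls. The platform table paired 13513 with 1 gene, 503 with several, which were not named, and left 8730 unlisted. By gene number 13436 matched the TAIR10.1 gene table. A gene with several probe sets was read from its brightest one by mean log2 value. No coordinates are given, since no source used here names the array's build.

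limma 3.58.1 in R 4.3.3 fitted group means over all 12 arrays, with a trended prior and Benjamini-Hochberg adjustment over 14678 probe sets, at an adjusted p of 0.05. The method was tested on simulated data. Precision is limited by the number of arrays. AT1G26380, AT1G26390 and all gene lists were chosen with earlier results of these data known. Named genes were every family gene with a probe set, every measured sulfur deficiency marker and up to 4 genes of each other list by F test. The 5 genes most like each of AT1G26380 and AT1G26390 were also named. Outside this rule, AT4G08850 of the flagellin list and the untested CML38 and JRG21 were named too. Replicate numbers were not used to pair the arrays, except in the alternative fit with the replicate number as a block. Alternatives were an offset of 16.3 before log2, quantile normalization, no filter, a stricter filter at the median, no trend, the replicate number as a block, fitting 2 groups at a time, and dropping each array in turn. Promoter motifs and protein identity, though planned, were not analysed here.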

Additional observations from a re-analysis of the deposited data

How the results depend on the processing

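The size of the differences of AT1G26380 and AT1G26390 is limited by dim signals from 12 h on. The direction was the same at all 5 times under the offset, under quantile normalization and without any 1 of the 12 arrays. Both 0 h arrays of each gene lay above all its later arrays, so the offset or a dropped array could not turn the direction. With the offset AT1G26380 stood at -2.32, -2.86 and -2.67 at 24, 48 and 72 h, and AT1G26390 at -2.61, -3.07, -2.96 and -2.97 at 12, 24, 48 and 72 h, since an offset damps dim values by construction. Leaving out 1 array gave -6.18 to -3.48 for AT1G26380 at 72 h and -2.72 to -0.96 for AT1G26390 at 3 h. Among the other 10 family genes, the count past the threshold without 1 array was 1 to 2 at 3 h, 0 to 3 at 12 h, 0 to 4 at 24 h, 0 to 1 at 48 h, 0 to 2 at 72 h and 2 to 5 in the F test. The highest counts at 12 h, 24 h, 72 h and in the F test came from leaving out a 3 h array. At 3 h, 0 rose and 2 fell without 3 h replicate 1, where 2 had risen and 0 fallen. With the compared groups alone the count was 1 at 3 h and 1 at 12 h. With no trend it was 1 at 12 h and 0 at 24 h and 48 h. Of all probe sets, 1755 passed at 3 h and 922 with the compared groups alone. At 24 h 709 passed, and 451 with no trend. Without 1 array the count ran from 569 to 1316 at 12 h (1129 in the fit of all arrays), 158 to 909 at 24 h, 191 to 648 at 48 h (516) and 322 to 1114 at 72 h (906). With replicate number as a block, 1 family gene passed at 12 h, where 2 had passed, and 2 passed the F test, as before. Of 15 pairs of times, 1 had a correlation of replicate differences over 0.1, with a range of -0.231 to 0.198. A lone array left in a group was assumed to vary like the others. The cause of these changes was not tested.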
